A study of Mus musculus with 2 samples.

Results

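The enzymes that carry squalene epoxide through lanosterol to cholesterol were examined in regenerating mouse liver with and without PPARβ. Lss, Cyp51, Tm7sf2, Sc4mol, Nsdhl, Hsd17b7, Ebp, Sc5d and Dhcr7 were taken by symbol from the deposited table of loci. They make up 9 of the 33224 gene symbols in that table, and all 9 were found. Tm7sf2 has only the estimate of a locus it shares with other genes. Its values, and its part in counts, ranks and sums below, are those of that joint locus. The WT library came from liver of C57BL/6 male mice of wild type genotype, and the KO library from liver of PPARbeta-null male mice of the same strain. Both were labelled 4 month of age, while the protocol gives a range of ages around that value. By the results text of the study both livers were regenerating, 48 hr after partial hepatectomy (PH), the surgical removal of most of the liver. There was 1 library per genotype, so the spread between mice was not measured and no difference below was tested. How many mice each library holds, and which cells lack PPARβ beyond the label of a null allele, is not given in the sources used here.

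Cholesterol is built in the endoplasmic reticulum (ER) in a long arm and a late arm. The long arm, the mevalonate arm, makes squalene from acetyl units, and the late arm closes squalene epoxide to lanosterol and then strips methyl groups, moves a double bond and reduces others until cholesterol is left. In liver the genes of both arms are known targets of SREBP-2, a transcription factor held in the ER by sterols and released when sterols are scarce. SREBP-2 binds the sterol regulatory element (SRE) and commonly acts beside NF-Y, which binds CCAAT, and Sp1, which binds GGGCGG.

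The sequences before the transcription starts are shown because the 9 genes are classic members of one regulated set. The RefSeq promoter table (GRCm38.p6) held all 9, Sc4mol under its present symbol Msmo1, with 1 start for 8 of them and 3 starts for Dhcr7. Each window of 250 bases before a start matched the NCBIM37 genome, the build of the deposited loci, exactly once. Of these, 5 are printed 5′ to 3′ on the strand of the gene: the genes with the highest WT/KO ratios, Lss and Sc5d, the gene with the lowest, Hsd17b7, and Cyp51 and Ebp between them. Bases that GENCODE vM1 already counts as part of the gene were left off the end next to the start, 17 for Lss, 49 for Cyp51 and 36 for Hsd17b7. Capitals mark the NF-Y box CCAAT, the Sp1 box GGGCGG and a short SRE-like run, TCACNNCA, on either strand, so that a box on the opposite strand appears as its reverse complement. Past the printed stretches lie the CCAAT of Cyp51 and the one nearest the start in Hsd17b7. The stretches lie at chr10:75994100-75994332 on the plus strand and, on the minus strand, at chr5:4104747-4104947, chr1:171899373-171899586, chrX:7770639-7770888 and chr9:42072384-42072633.
Lss: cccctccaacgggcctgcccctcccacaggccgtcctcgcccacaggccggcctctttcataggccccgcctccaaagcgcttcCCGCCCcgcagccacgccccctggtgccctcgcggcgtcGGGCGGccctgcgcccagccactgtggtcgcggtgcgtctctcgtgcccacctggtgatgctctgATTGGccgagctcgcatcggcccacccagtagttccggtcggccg
Cyp51: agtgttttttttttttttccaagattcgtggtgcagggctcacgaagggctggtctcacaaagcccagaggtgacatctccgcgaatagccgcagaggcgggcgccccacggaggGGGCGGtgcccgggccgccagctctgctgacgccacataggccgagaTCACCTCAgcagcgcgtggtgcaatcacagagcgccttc
Hsd17b7: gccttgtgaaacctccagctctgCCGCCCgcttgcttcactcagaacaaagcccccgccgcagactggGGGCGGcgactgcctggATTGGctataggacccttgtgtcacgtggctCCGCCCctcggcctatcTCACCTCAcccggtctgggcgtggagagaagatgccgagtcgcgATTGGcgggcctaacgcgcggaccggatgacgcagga
Ebp: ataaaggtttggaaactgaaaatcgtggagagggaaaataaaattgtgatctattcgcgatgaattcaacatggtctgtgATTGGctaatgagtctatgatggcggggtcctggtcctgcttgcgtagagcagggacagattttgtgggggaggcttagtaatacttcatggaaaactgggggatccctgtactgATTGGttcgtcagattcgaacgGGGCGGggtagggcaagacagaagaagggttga
Sc5d: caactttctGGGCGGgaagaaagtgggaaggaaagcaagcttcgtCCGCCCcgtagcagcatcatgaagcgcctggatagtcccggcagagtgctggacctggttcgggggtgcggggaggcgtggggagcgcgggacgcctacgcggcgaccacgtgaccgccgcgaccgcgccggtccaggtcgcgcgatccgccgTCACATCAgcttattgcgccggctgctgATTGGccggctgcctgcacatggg

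The classic SRE, searched as TCACNCCAC on both strands, was in none of the 9 promoters and in 1.1% of all 32851 promoter windows. A shorter form of it, TCACNNCA, was chosen after these sequences were seen. It was found in Cyp51, Sc4mol, Hsd17b7, Sc5d and Dhcr7, that is in 5 of 9 genes, against 11.4% of all windows and 9.6% of the 9777 windows of expressed genes. In Sc4mol one of its copies shared a base with a CCAAT box. CCAAT was in all 9 genes, against 33.8% of all windows and 35.8% of those of expressed genes. GGGCGG was also in all 9, against 32.7% and 56.7%. The 8 genes with 1 start each held both boxes in the same window, as did 11.0% of all windows and 20.3% of those of expressed genes. A gene was counted when any of its windows held the letters, and Dhcr7 had both boxes only before the third of its starts. The windows of expressed genes were matched by symbol, with every symbol of a joint locus included. Expressed genes that RefSeq lists under another symbol were missed. Genes that passed 2-fold and genes that did not both carried the pair of boxes. The longer SRE letters being absent says only that these letters were not in these windows.

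**Figure D1:**
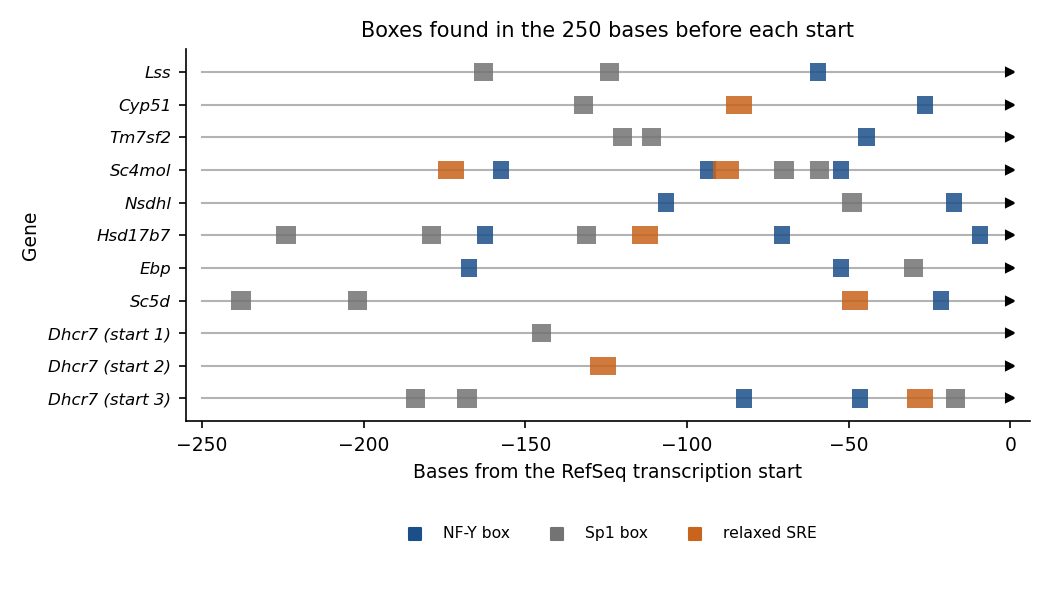
Position of each box in the 250 bases before the RefSeq starts, in bases from the start (x axis), with 1 line per start and genes in the order of the pathway. Blue marks CCAAT, grey GGGCGG and orange TCACNNCA, which Lss, Tm7sf2, Nsdhl and Ebp lack.

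All 9 enzymes had a lower FPKM in the KO than in the WT library, and 6 of them were more than 2-fold lower. FPKM counts the fragments on each kilobase of exon relative to the depth of the library, a level that can be compared between genes because it is given per length. The WT/KO ratio ranged from 1.44 for Hsd17b7 to 6.84 for Lss, with a median of 3.37. The enzymes past 2-fold were Lss, Sc5d, Dhcr7, Sc4mol, Nsdhl and Cyp51. Ebp, Tm7sf2 and Hsd17b7 stayed under 2-fold. Among the 11073 expressed genes, those whose FPKM averaged 1 or more over both libraries, 8.89% were more than 2-fold lower and 1.74% more than 2-fold higher in the KO library. More than 3-fold lower were 5 of the 9 enzymes, and 4.26% of those expressed genes. Lower by any amount were 75.7% of expressed genes, so the shared direction alone was common in these libraries. The median WT/KO ratio over all expressed genes was 1.18. The names of the libraries in the table carry lane 2 for WT and lane 3 for KO, so lane and genotype cannot be told apart. In whole liver, fewer cells of a type and less RNA per cell cannot be told apart either.

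**Figure D2:**
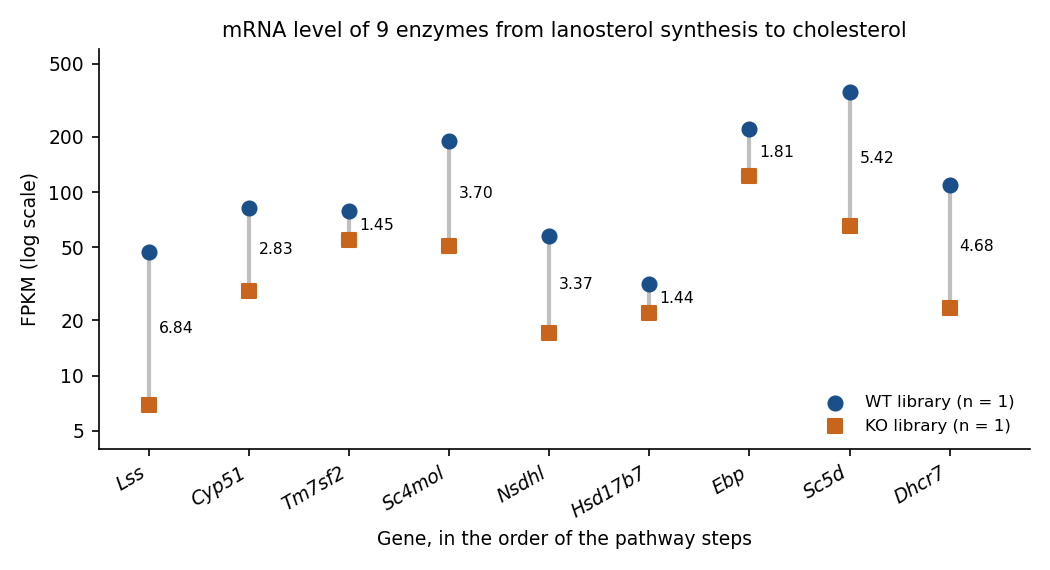
FPKM (y axis, log scale) of the 9 enzymes in the order of the pathway steps (x axis), circles for the WT library and squares for the KO library, with the WT/KO ratio beside each pair. Every square lies below its circle, with the widest gap for Lss (47.3 and 6.92) and the narrowest for Hsd17b7 (31.6 and 21.9).

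The 95% intervals of ratios given below come from estimated fragment numbers. They cover counting error only, not the assignment of fragments to transcripts or the spread between mice. From the lowest values of single-exon genes, 1 FPKM on a transcript of 1 kb stood for about 53.1 fragments in WT and 54.9 in KO.

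Lss, lanosterol synthase, folds squalene epoxide into lanosterol and so makes the first sterol of the pathway. Its locus lies at chr10:75994333-76024971 on the plus strand, and its FPKM was 47.3 in WT liver and 6.92 in KO liver. It was thus the next to lowest of the 9 in WT and the lowest in KO. The WT/KO ratio was 6.84, with an interval from 6.50 to 7.19, and 98.1% of expressed genes had a smaller ratio. Lss stood above 86.6% of expressed genes by level in WT and above 49.9% in KO, the steepest drop in standing among the 9. About 11717 and 1774 fragments lay behind these levels. The locus also overlaps the lincRNA 4930483K19Rik on the opposite strand, and reads of the pair cannot be told apart because strand-aware counting is not stated.

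Cyp51, lanosterol demethylase, is the cytochrome P450 that begins the removal of the first methyl group and the target to which azole antifungals bind in yeast. Its FPKM was 82.1 in WT liver and 29.0 in KO liver (chr5:4081145-4104746, minus strand). Cyp51 held the middle place among the 9 in both libraries. Its WT/KO ratio was 2.83, with an interval from 2.75 to 2.92, above that of 95.5% of expressed genes. As a P450 it takes electrons from Por, the cytochrome P450 reductase. Por was higher in KO, with an FPKM of 181 in WT liver and 272 in KO liver and a WT/KO ratio of 0.665, short of 2-fold. Cyp51 per Por, as a ratio of FPKM, was 0.454 in WT and 0.106 in KO.

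Tm7sf2, a sterol reductase, reduces the double bond that the action of Cyp51 leaves behind. Its row in the table is 1 joint locus with 1110014N23Rik and Zfpl1 (chr19:6062821-6084944), all on the minus strand, so its level cannot be separated from theirs. BC048609 also overlaps this stretch, on the plus strand. The joint locus had an FPKM of 79.0 in WT liver and 54.5 in KO liver, a ratio of 1.45. No interval is given for it. Lbr, the lamin B receptor, is an inner nuclear membrane protein that catalyses the same reduction. Its FPKM was 9.44 in WT liver and 2.21 in KO liver, a ratio of 4.28 with an interval from 3.85 to 4.77. The level of the joint locus per Lbr was 8.36 in WT and 24.7 in KO, both as ratios of FPKM. The 2 entries for this step thus differed in ratio, the more abundant one having the smaller.

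Sc4mol, Nsdhl and Hsd17b7 encode the complex that removes the remaining pair of methyl groups, as oxidase, decarboxylating dehydrogenase and ketoreductase. Sc4mol (chr8:67196936-67212589, minus strand) had an FPKM of 189 in WT liver and 51.1 in KO liver. Nsdhl, an X-linked gene (chrX:70163896-70203853, plus strand), had 57.3 and 17.0, and Hsd17b7 (chr1:171879666-171899372, minus strand) had 31.6 and 21.9. The first 2 lay well below their WT level in KO, while Hsd17b7 lay nearer to it. The WT/KO ratio was 3.70 for Sc4mol, with an interval from 3.59 to 3.81. It was 3.37 for Nsdhl, with an interval from 3.21 to 3.55. The counting intervals of these neighbours lay close together but apart. For Hsd17b7 the ratio was 1.44, with an interval from 1.39 to 1.49, and 76.7% of expressed genes had a smaller one. Sc4mol per Nsdhl, as a ratio of FPKM, was 3.30 in WT and 3.01 in KO. Nsdhl per Hsd17b7 was 1.81 in WT and 0.775 in KO, so these 2 partners exchanged order. Hsd17b7 is also known as an estrone reductase, a role outside this pathway. The factor that tethers the complex, listed as 0610007P14Rik (Erg28 in RefSeq), had an FPKM of 68.8 in WT liver and 38.9 in KO liver, a ratio of 1.77.

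Ebp, the sterol isomerase that shifts the double bond of the ring and also binds the drug emopamil, was the second most abundant of the 9 in WT and the most abundant in KO. Its FPKM was 222 in WT liver and 123 in KO liver (chrX:7762455-7770638, minus strand). The WT/KO ratio of 1.81, with an interval from 1.77 to 1.85, lay below 2 but above that of 88.4% of expressed genes. Ebp made up 19.0% of the summed FPKM of the 9 in WT and 31.4% in KO.

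Sc5d, the desaturase that follows Ebp, was the most abundant of the 9 in WT, with an FPKM of 353 against 65.1 in the KO library. It stood above 98.4% of expressed genes in WT and above 91.2% in KO. Its ratio was 5.42, with an interval from 5.29 to 5.55, and its share of the summed FPKM was 30.1% in WT and 16.6% in KO. Sc5d alone differed by 288 FPKM between the libraries, more than any other of the 9. Its locus (chr9:42038065-42072401) is wider than the annotated gene, which starts at 42062260 and ends at 42072383 on the minus strand. Sc5d per Ebp, as a ratio of FPKM, was 1.59 in WT and 0.529 in KO, so the order of these consecutive steps turned over.

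Dhcr7, the reductase that makes cholesterol from 7-dehydrocholesterol, draws on the same precursor that skin uses for vitamin D. Its FPKM was 110 in WT liver and 23.4 in KO liver (chr7:151009050-151034317, plus strand). The WT/KO ratio was 4.68, with an interval from 4.51 to 4.85, and 97.5% of expressed genes had a smaller ratio.

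Desaturation by Sc5d and demethylation by Sc4mol draw electrons through cytochrome b5. The Cyb5 level, summed over its 2 rows, was an FPKM of 974 in WT liver and 810 in KO liver, a ratio of 1.20. Cyb5b, the outer mitochondrial form, had 148 and 78.6, a ratio of 1.89. Cyb5r3, the cytochrome b5 reductase, had 161 and 96.7, a ratio of 1.66. None of these electron carriers passed 2-fold. Pgrmc1, a haem protein that binds cytochromes P450, had an FPKM of 637 and 492, a ratio of 1.29, and its relative Pgrmc2 had a ratio of 1.12. Of the 8 genes reported as sharing a step or a cofactor with the enzymes, 7 were lower in KO (6 when the libraries were centred on the median of expressed genes) and 1 of them, Lbr, passed 2-fold, while Por was higher. The median log2 KO/WT of this list was -0.55, beside -0.24 over all expressed genes, both with a pseudocount of 0.1 FPKM.

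Placed in order of ratio, the enzymes ran Lss, Sc5d, Dhcr7, Sc4mol, Nsdhl, Cyp51, Ebp, Tm7sf2 and Hsd17b7. Neighbours in this order had counting intervals that lay apart, except that the joint Tm7sf2 locus has no interval to set against Ebp and Hsd17b7. Whether the order would hold in other mice was not tested. The 3 smallest ratios did not sit together in the pathway, since Tm7sf2 is the third step, Hsd17b7 the sixth and Ebp the seventh in the order used here. The summed FPKM of the 9 was 1171 in WT liver and 392 in KO liver, a ratio of 2.99. The levels spanned 11.2-fold among the 9 genes in WT and 17.8-fold in KO. Across the 9 genes, Spearman's rho between WT and KO levels was 0.82, and between WT level and WT/KO ratio it was 0.28. Each pair shares the same libraries, and in the second the WT level is also the numerator of the ratio. In order of level, Ebp went from rank 2 in WT to rank 1 in KO and Tm7sf2 from 6 to 3, while Dhcr7 went from 4 to 6.

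**Figure D3:**
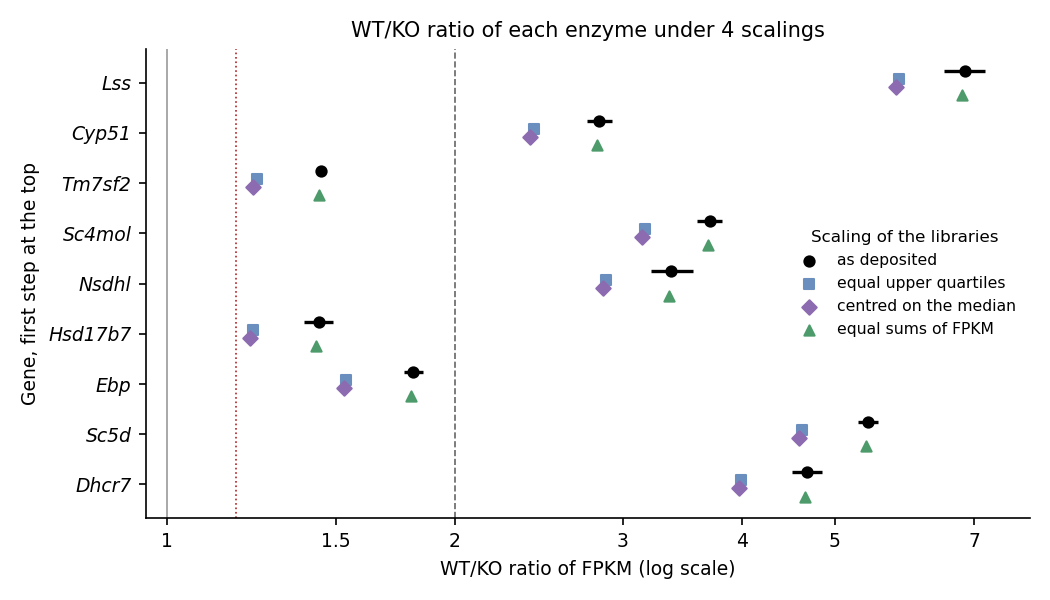
WT/KO ratio of FPKM (x axis, log scale) of each enzyme, first step at the top, with the values as deposited (black, with 95% counting intervals) and under 3 other scalings of the libraries. The dashed line marks 2, the dotted line the median of all expressed genes as deposited (1.18), and the grey line 1; Lss, Cyp51, Sc4mol, Nsdhl, Sc5d and Dhcr7 lie above 2 under every scaling shown.

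A scaling that centred the libraries on the median log2 ratio of expressed genes multiplied KO values by 1.18. The ratios then ran from 1.22 for Hsd17b7 to 5.80 for Lss, with 6 of 9 above 2. Cyp51, the lowest of the 6, had a ratio of 2.40, and Tm7sf2 1.23. The share of expressed genes more than 2-fold lower was 6.30% under this scaling.

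**Figure D4:**
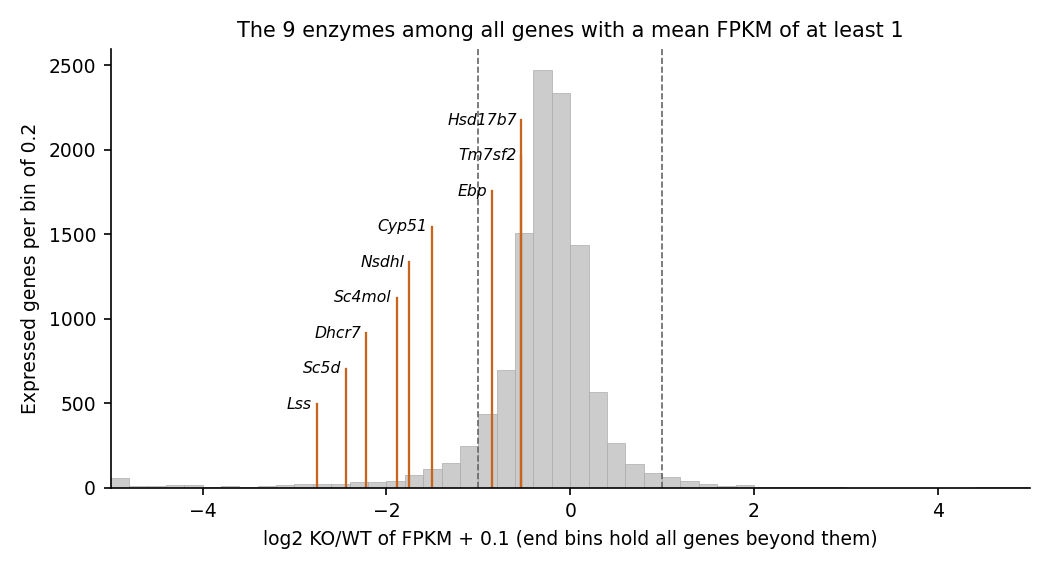
Number of expressed genes (y axis) by log2 KO/WT of FPKM with a pseudocount of 0.1 (x axis, bins of 0.2), with an orange line at the value of each enzyme and dashed lines at a 2-fold change. The heights of the orange lines carry no value; the 9 lie at or below -0.53, while the median of all 11073 genes is -0.24.

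The mevalonate arm, which feeds this pathway, was lower in KO as well. Of its 9 genes considered here, 7 had a level to compare. Hmgcs1 was listed at 0 in both libraries, and whether that is its true level was not tested. Mvd was not found among the symbols with a level. All 7 were more than 2-fold lower in the KO library, 6 of them when centred on the median, with WT/KO ratios from 2.15 to 7.45 and a median of 4.56. Fdps, which makes farnesyl pyrophosphate, had an FPKM of 295 in WT liver and 53.9 in KO liver, a ratio of 5.48. Idi1, the isopentenyl pyrophosphate isomerase, had 108 and 23.0, a ratio of 4.67. Acat2, the thiolase at the entry, had 79.7 and 37.0, a ratio of 2.15, the smallest of the arm. Pmvk, the phosphomevalonate kinase, had the largest of those reported, with 51.3 and 6.88, and was picked once its values were known. The median log2 KO/WT was -2.18 for this arm and -1.75 for the late arm. The late arm differed in holding 3 entries under 2-fold, whereas the smallest ratio upstream was already past it as deposited. Of these 3, the joint Tm7sf2 locus does not give the level of Tm7sf2 alone. This difference between the arms was not tested.

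Among genes that sense sterols or answer to them, 3 of 8 averaging 0.1 FPKM or more were more than 2-fold lower in the KO library and 1 was more than 2-fold higher. Centred on the median of expressed genes, these counts were 2 and 1. Of all genes averaging 0.1 FPKM or more, 13.7% were more than 2-fold lower as deposited. Insig1, an ER protein that retains the SREBP carrier Scap and is itself an SREBP target, had an FPKM of 205 in WT liver and 31.3 in KO liver, a ratio of 6.53. Insig2, its relative, was the gene past 2-fold higher, with 116 in WT and 368 in KO, a KO/WT ratio of 3.17. These relatives thus differed in opposite directions. Srebf1, which encodes SREBP-1, had 46.6 and 9.21, a ratio of 5.06. The remaining one past 2-fold was Stard4, a carrier of sterols between membranes, picked once its values were known, with 29.5 and 13.3 and a ratio of 2.22. Srebf2, the gene of SREBP-2, was also picked once its values were known, with an FPKM of 19.1 and 13.3 and a ratio of 1.43. The median log2 KO/WT of the list was -0.50.

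**Figure D5:**
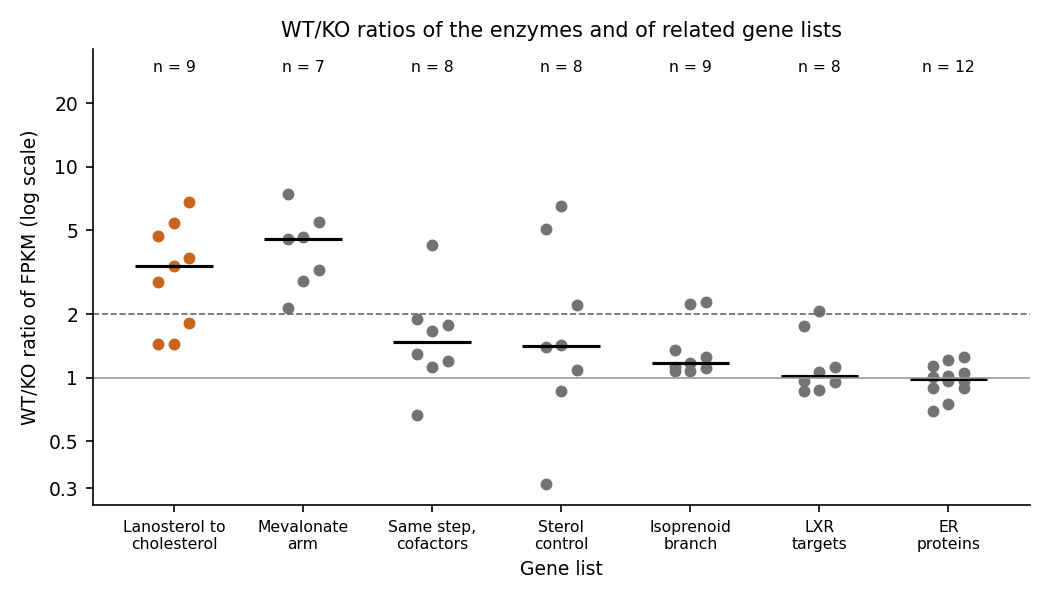
WT/KO ratio of FPKM (y axis, log scale) for each gene averaging 0.1 FPKM or more in the 9 enzymes (orange) and 6 other lists (grey), with a bar at each list's median, a grey line at 1 and a dashed line at 2. The medians are 3.37 for the enzymes, 4.56 for the mevalonate arm and 0.991 for the ER proteins.

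The targeted gene and the markers of cell types bear on what was in the libraries. Ppard, which encodes PPARβ, had an FPKM of 2.67 in WT liver and 2.42 in KO liver. A level over the whole gene also counts exons outside a disrupted part, and the disrupted exons are not given in the sources used here, so it does not check the genotype. The summed FPKM of the 7 hepatocyte markers came to 18422 for WT and 17783 for KO, where 3 were lower and 4 higher in KO (2 and 5 when centred on the median of expressed genes). Cps1 and Ass1, enzymes of the urea cycle, were more than 2-fold lower as deposited, and 1 marker was when centred. The 5 macrophage markers summed to 34.4 and 23.0, with 4 lower, of which Csf1r passed 2-fold, and Marco higher in KO at 6.58 and 7.37. The 4 endothelial markers summed to 23.9 and 14.5, and each was lower in KO by less than 2-fold. The sums of the macrophage and endothelial markers were lower in KO, and their part in the result was not tested. The 5 erythroid markers summed to 295 and 252, and of the 4 averaging 0.1 FPKM or more 3 were lower and 1 higher in KO. Slc4a1 was more than 2-fold lower at an FPKM of 0.158 and 0.0461, and Alas2, at 20.6 and 37.5, was higher in KO, past 2-fold when centred. Of the adipocyte markers, summing to 0.129 in WT, all 4 were listed at 0 in KO, and the 3 steroid producing markers summed to 10.7 and 16.1. Cyp17a1 made up most of that last sum, while Cyp11a1 was at 0.0173 in WT and listed at 0 in KO. The 12 ER proteins used for reference come from the membrane or the lumen of the ER. Their WT/KO ratios ran from 0.694 to 1.26, and none passed 2-fold.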

How the data were processed

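Hepatic RNA of 1 WT and 1 KO library was sequenced on an Illumina instrument after TruSeq preparation. The authors aligned the reads with TopHat (2.0.0 per the submitters' processing notes) to NCBI37 (mm9), assembled transcripts with Cufflinks 1.3.0 and deposited 1 FPKM per locus and library from Cuffdiff. Whether quartile normalization was used is not given in the sources used here. The deposited columns of log2 fold change, test statistic, p-value and q-value hold the authors' own comparison and were not used.

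Of 38016 loci, 21 marked as too deep to estimate were left out, 2302 without a symbol were not used, and rows of one symbol were summed. Locus starts count from 0 in the table and are given here from 1. The members and lists were chosen with earlier results of these data known. Of the lists, genes sharing a step or cofactor were named, and of the others the 3 of highest mean FPKM. A few listed genes are not reported here and do not enter the counts and medians of their lists. Genes outside this rule are marked as picked once their values were known. Cell type marker lists are given by sums and counts. Expressed genes averaged 1 FPKM or more, a joint locus counting once except in the promoter windows. For log2 ratios 0.1 FPKM was added to both values, so changes of weakly expressed genes come out too small, and list members under a mean FPKM of 0.1 were left out.

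Depth was estimated from the low values of single-exon genes of at least 600 bases, 217 for WT and 199 for KO. A 95% interval of a ratio is the exact binomial (Clopper-Pearson) interval of the WT share of fragments estimated on the longest protein-coding transcript of GENCODE vM1 (NCBIM37). That transcript, and the single counting of joint loci, were chosen after values were seen. Computation used scipy 1.17.1, pandas 2.3.3 and numpy 2.4.6 under Python 3.11.15, with figures from matplotlib 3.10.9. The depth estimate, the interval, the 2-fold count and the scaling were tested on simulated data. Low values there lay closer to whole fragment numbers than in these libraries, so the depths remain approximate. Alternatives covered scaling, pseudocount, fold, filter, summed rows and joint loci. Without replicates no test was run.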

Additional observations from a re-analysis of the deposited data

How the results depend on the processing

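The count of enzymes more than 2-fold lower in KO was 6 under every scaling, 7 at a fold of 1.5 and 5 at a fold of 3. Using only the highest row of a symbol, or leaving out joint loci, had to give 6 again. Each enzyme had 1 row, and the joint Tm7sf2 locus was under 2-fold. The median log2 KO/WT of the enzymes, -1.75, became -1.52 with equal upper quartiles and -1.51 when centred on the median of expressed genes. Centring shifts the median of expressed genes from -0.24 to 0. For the mevalonate arm, -2.18 became -1.95 and -1.94. A pseudocount of 1 FPKM gave -2.11 for the arm. The share of expressed genes more than 2-fold lower, 8.89%, was 20.2% at a fold of 1.5 and 4.26% at a fold of 3. It was 13.7% with a mean FPKM of at least 0.1, 5.23% with at least 10 and 21.4% without a filter. Counting each symbol of a joint locus, an alternative chosen after seeing the data, gave 8.69%. None of these results turned direction for the 9 enzymes or the mevalonate arm, while centring changed how many genes of several other lists were lower in KO. Of 44 single-gene alternatives, 25 moved the ratio by no more than its counting interval or not at all. The other 19 moved it further, 3 of these for the joint Tm7sf2 locus, which has no interval. Alternatives on summed rows and joint loci could not move a ratio, because each enzyme had 1 row. Equal upper quartiles and centring each moved the ratio of every enzyme, past its interval where it had one.

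No paired analysis was possible because each genotype had 1 library, and for the same reason no library was left out. Depth limited little by the estimates made here, of which the lowest, Lss in KO, was about 1774 fragments. That number assumes the longest coding transcript. Were a shorter one mostly read, the fragments would be fewer and the interval wider.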

Other observations

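In the isoprenoid branch, around farnesyl and geranylgeranyl pyrophosphate outside sterol synthesis, all 9 genes were lower in the KO library as deposited. Only 4 of 9 were lower when centred on the median of expressed genes. WT/KO ratios of FPKM ran from 1.08 to 2.28, and the median log2 KO/WT was -0.22, beside -0.24 over all expressed genes. Dhdds, which makes the chain of dolichol, shares its locus with another symbol and was at 38.6 FPKM in WT and 16.9 in KO. Fntb, the farnesyltransferase subunit and also in a joint locus, had 34.7 and 29.7, and Coq2 of ubiquinone synthesis had 21.3 and 17.0. Dhdds and Pdss1, the latter picked once its values were known, were the 2 past 2-fold as deposited, and none was when centred. Among all genes averaging 0.1 FPKM or more, 13.7% were more than 2-fold lower as deposited.

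Of 8 LXR target and receptor genes, 4 were lower and 4 higher in the KO library (2 and 6 when centred), with a median log2 of -0.02. Nr1h3, the gene of LXRα and part of a joint locus, had an FPKM of 47.7 and 54.6, Lpcat3 had 41.0 and 23.3, and the cholesterol exporter Abca1 had 24.5 and 22.9. Abcg1, picked once its values were known, was the 1 past 2-fold, at 1.36 and 0.657. More than 2-fold lower as deposited were 13.7% of all genes averaging 0.1 FPKM or more.

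Of 7 genes that use cholesterol or its products, 2 were more than 2-fold lower in the KO library, and 1 when centred. As deposited, 13.7% of all genes averaging 0.1 FPKM or more were more than 2-fold lower. Lcat, in a joint locus, had an FPKM of 181 and 300, Cyp7b1 had 146 and 122, and Cyp27a1 had 140 and 94.2. The 2 past 2-fold, both picked once their values were known, were Soat1, at 0.721 and 0.313, and Cyp7a1, the rate-limiting enzyme of bile acid synthesis, at 30.1 and 1.20, a WT/KO ratio above that of 99.1% of expressed genes.

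Of the 12 ER proteins, 6 were lower and 6 higher in the KO library, or 2 and 10 when centred. P4hb was at 516 FPKM in WT and 688 in KO, Calr 349 and 503, and Hspa5 395 and 378.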
